A study of Mus musculus with 4 samples.

Results

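The respiratory chain of the inner mitochondrial membrane is built from proteins of both the nuclear and the mitochondrial genome, and the nuclear genes for it are described here in mouse embryonic fibroblasts (MEFs) with and without Mll1. Members were chosen by name: symbols that start with Nduf, Uqcr, Atp5 or Cox followed by a digit, and Sdha, Sdhb, Sdhc, Sdhd, Cyc1 and Cycs, with pseudogenes left out. The rule found 102 of the 16612 genes with a symbol, and 97 of these were among the 11115 genes that reached 1 RPKM (reads scaled to transcript length and library size) in at least 1 library. The 97 were 37 genes of complex I, 4 of complex II, 9 of complex III, 12 of complex IV, 17 of complex V, 17 assembly factors and cytochrome c.

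MEFs are connective-tissue cells grown from mouse embryos. The study compared wild-type cells (Mll1+/+) with cells labelled Mll1-/-. Both were kept for 4 hr with TNFa, the inflammatory cytokine tumour necrosis factor (TNF below), at 10 ng/ml, or with the control solution. Mll1 is the gene Kmt2a of current nomenclature, whose protein methylates lysine 4 of histone H3. All cells were grown in the same serum-containing medium, and the sources do not say how many embryos or clones lie behind each genotype. Cells from 3 separate treatments were mixed before sequencing, so each of the 4 groups is 1 library, there is no replicate check, and no difference below was tested.

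Complexes I and II pass electrons from NADH and succinate to ubiquinone, complex III passes them to cytochrome c, and complex IV passes them to oxygen. Complexes I, III and IV pump protons as they do so, and complex V, the ATP synthase, uses the gradient to make ATP. Most subunits of these complexes are small proteins encoded in the nucleus, and the mRNAs of many are short and abundant in growing cells.

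Depth ran from 19306506 to 27977248 reads per library. Kmt2a stood at 1.85 RPKM in the wild-type control, 2.11 in wild type with TNF, 2.02 in the Mll1-/- control and 1.66 in Mll1-/- with TNF, so its RNA was not lower in both libraries labelled Mll1-/-, and the table does not show which part of the gene the reads came from. Nfkbia, the NF-kB inhibitor that TNF induces, stood at 16.4, 66.4, 21.8 and 54.3 RPKM in the same order, higher with TNF in both genotypes. The 8 fibroblast markers found in the table summed to 2643, 2429, 2960 and 2781 RPKM, most of it Vim (vimentin) at 2418, 2224, 2177 and 2097 RPKM. The other 7 were higher in both libraries labelled Mll1-/-, among them the collagen gene Col1a1 at 105, 92.5, 337 and 295 RPKM and Col3a1 at 0.531, 0.296, 28.1 and 23.5 RPKM. All epithelial, endothelial, macrophage and adipocyte markers found were under 1 RPKM in all 4 libraries, while the 3 neural markers found summed to 14.4, 14.0, 104 and 91.8 RPKM. The 3 muscle markers found summed to 176, 142, 204 and 209 RPKM, nearly all of it Acta1, with Ckm under 1 RPKM in all 4. The neural sum and most fibroblast markers were therefore higher in both libraries labelled Mll1-/-, and their part in the results below was not tested.

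In the untreated libraries, the respiratory chain genes were lower in Mll1-/- than in wild type almost throughout. The median log2 ratio of the 97 members was -0.64 on the log2(RPKM + 0.5) scale, where the median of all 11115 genes was -0.04. At a log2 ratio of -1 or below (2-fold lower; a log2 ratio of 1 in size is called the 2-fold rule) stood 26 members, or 26.8%, against 7.03% of all genes, and 92 of 97 members lay below 0, against 53.5% of all genes. Only 2 members, Ndufs6 and Ndufaf4, lay at 1 or above, against 7.46% of all genes. The 95% counting interval of the ratio of reads, which covers counting error only, lay wholly below 1 for 89 members, against 41.8% of all genes, and wholly above 1 for 3, against 35.9%. Members are more abundant than most genes, which narrows their intervals. When the libraries were scaled without the 20 most abundant genes, the members' median was -0.38 where that of all genes was 0.19, and 12 members were at -1 or below. In bulk RNA, fewer cells of a type and less RNA per cell cannot be told apart.

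Summed over the 82 genes for structural subunits, the level was 11674 RPKM in the wild-type control, 11137 in wild type with TNF, 7302 in the Mll1-/- control and 9885.5 in Mll1-/- with TNF. The Mll1-/- control thus held 62.6% of the wild-type control level, and with TNF the proportion was 88.8%. By complex, the untreated proportion was lowest for complex IV at 54.3%, followed by 58.0% for complex III, 61.8% for complex I, 66.2% for complex V, 80.3% for cytochrome c and 88.3% for complex II. The untreated Mll1-/- library was the lowest of the 4 for 87 of the 97 members (89.7%), against 32.9% of all genes. The other 10 were Ndufa10, Ndufs1, Ndufs6, Sdha, Sdhd, Ndufaf3, Ndufaf4, Cox10, Cox19 and Cox20. Transcript length was not held level in these shares. Of 149 other genes of 246 to 561 bases, 136 were lower in the Mll1-/- control than in the wild-type control. The same held for 32 of the 33 members of that length.

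**Figure D1:**
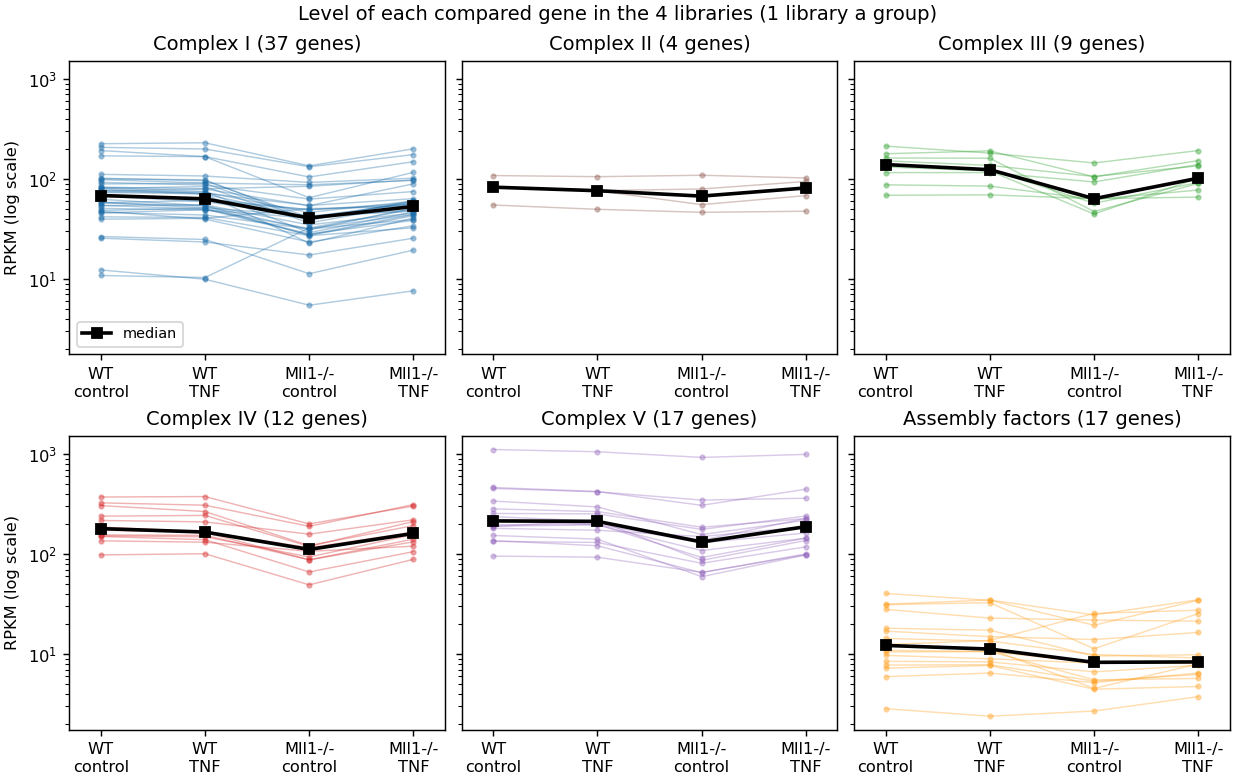
RPKM (log axis) of each of the compared members in the 4 libraries, in 1 panel for each complex and 1 for the assembly factors; thin lines join the values of 1 gene and the thick black line joins the medians, with no error bars because each group is 1 library. The black line of complex IV covers its 12 compared genes. Over its 11 expressed subunits alone, the median was 186 RPKM in the wild-type control, 116 in the Mll1-/- control and 165 in Mll1-/- with TNF. The line of Ndufs6 in complex I climbs from 10.8 RPKM in the wild-type control to 49.8 in Mll1-/- with TNF.

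Transcript length moved with these ratios over the whole table. The members are short, with a median length of 754 bases against 2802 for the other genes compared, and abundant, with a median of 74.3 RPKM against 11.0. Among the 11018 other genes, Spearman's rho between length and the untreated genotype ratio was 0.36, and among the 97 members it was 0.53. These correlations are across genes that share the same 4 libraries, so they describe the libraries and carry no test. Among the shortest members (33 genes of 246 to 561 bases) the median untreated ratio was -0.96, and 149 other genes of that length had -0.80. Among the middle ones (32 genes of 562 to 1180 bases) the values were -0.63 for members and -0.49 for 1039 other genes. Among the longest (32 genes of 1194 to 4798 bases) they were -0.34 and -0.06. Length was not matched inside this wide range. The running median of other genes in it climbed from -0.38 near 1255 bases to 0.15 near 4630 bases.

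Each member was therefore also set against the median of the 200 other genes nearest to it in transcript length, and the remainder is called the length-centred ratio. On this measure the untreated genotype median of the members was -0.19, and 64 of 97 lay below 0, against 50.0% of all genes. Length-centred ratios 1.5-fold or more lower were found for 14 members (14.4%), against 11.7% of all genes, and 1.5-fold or more higher for 2 (2.06%), against 15.3%. By coding length in place of transcript length, 23 of 96 members were 1.5-fold or more lower, against 12.6% of all genes with a coding length, and 13 were so by both measures. The centred median depended on which genes served as neighbours: it was -0.41 with no filter on low values, -0.32 with neighbours by coding length and -0.30 with entries without a symbol kept, while 4 other ways to take neighbours gave -0.17 to -0.23. The part that length itself plays in the ratio was not tested.

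**Figure D2:**
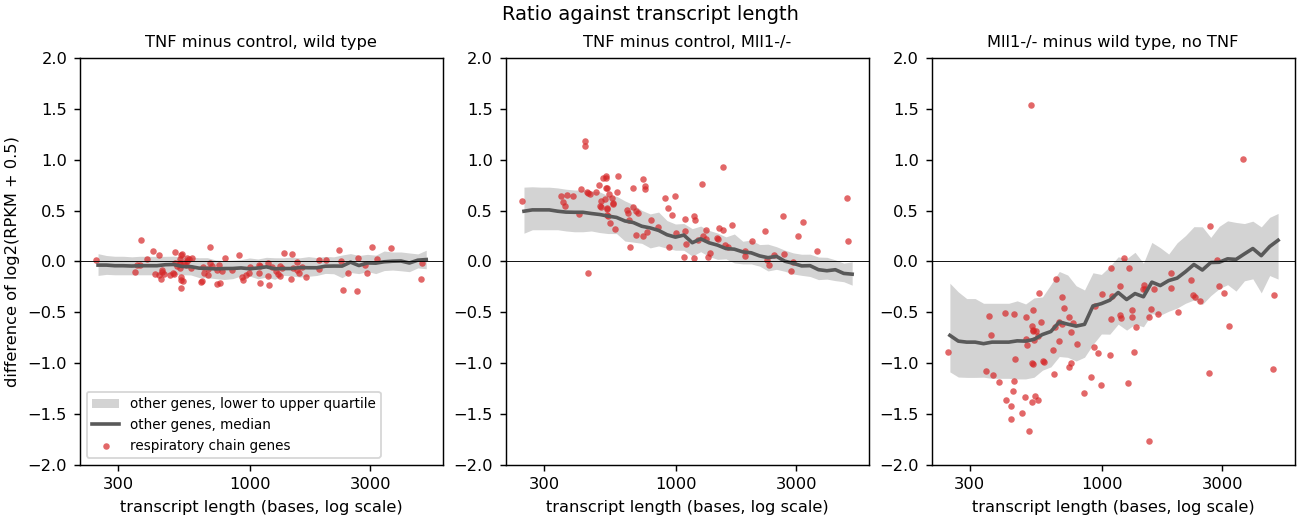
Difference of log2(RPKM + 0.5) (vertical axis) against transcript length in bases (horizontal log axis) for TNF against control in wild type, the same in Mll1-/-, and Mll1-/- against wild type without TNF; points are the 97 members, the line is the running median of the other genes and the band runs from their lower to their upper quartile. The line is near flat in the first panel, falls with length in the second and climbs with length in the last, where Ndufs6 and Uqcrq lie farthest above and below it.

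In complex I, which takes electrons from NADH, the 37 genes had a median untreated ratio of -0.68, or -0.12 when centred on length. The 7 core subunits, which carry the flavin and iron-sulfur centres, had a median of -0.44, and the 29 accessory subunits had -0.68. Ndufa1, a small accessory subunit needed for assembly of the complex, stood at 73.4 RPKM in the wild-type control, 71.1 in wild type with TNF, 22.8 in the Mll1-/- control and 40.7 in Mll1-/- with TNF. Its untreated ratio of reads was 0.310, with a counting interval of 0.268 to 0.358, and both Mll1-/- libraries lay below both wild-type libraries. Ndufa7, another accessory subunit, went the same way with 82.4, 74.9, 29.0 and 46.7 RPKM. Ndufa2, also accessory, had 170, 167, 64.95 and 116.5 RPKM. Ndufb11, an accessory subunit of the membrane arm, had 102, 96.0, 41.3 and 52.2 RPKM, and its genotype log2 ratio with TNF, -0.87, was the lowest of all members in that comparison.

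Of the core subunits, Ndufs7, which holds the last iron-sulfur cluster before ubiquinone, stood at 62.7, 54.1, 31.1 and 51.2 RPKM, so that only the Mll1-/- control stood apart, and its log2 genotype ratio with TNF was -0.08. Ndufs1, the largest of the core subunits of the peripheral arm, differed from it, with 39.6, 40.4, 50.6 and 53.1 RPKM, higher in both libraries labelled Mll1-/-. Its untreated ratio of reads was 1.28, with a counting interval of 1.21 to 1.34. The other complex I genes at a log2 ratio of -1 or below without TNF were Ndufa3, Ndufa6, Ndufa11, Ndufa13, Ndufb3, Ndufb4 and Ndufb4b, a copy of it by name, between -1.01 and -1.36. Ndufa12 and Ndufb9, the most abundant accessory subunits, were less far apart, with 225, 230, 135 and 200 RPKM for Ndufa12 and 207, 199, 132 and 175 RPKM for Ndufb9.

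Ndufs6, a zinc-binding accessory subunit near the NADH end of complex I, was the only subunit past the 2-fold rule in the higher direction. The other subunits above 0 without TNF were Ndufs1 at 0.35, Ndufa10 at 0.03 and Sdha at 0.01. Ndufs6 stood at 10.8 RPKM in the wild-type control, 10.3 in wild type with TNF, 32.4 in the Mll1-/- control and 49.8 in Mll1-/- with TNF, from 158, 152, 342 and 506 reads. The libraries labelled Mll1-/- were 2.99-fold higher without TNF (counting interval 2.47 to 3.63) and 4.82-fold higher with TNF (4.02 to 5.82). Its length-centred ratios of 2.30 and 2.46 were the highest of all members in both comparisons. A second entry of Ndufs6 had 8.66, 8.40, 25.9 and 41.7 RPKM in the same order. By name, Ndufs6b is a copy of Ndufs6, and sequence identity was not measured. Reads from the 2 might have been exchanged by the submitters' counting, so the level is uncertain to that extent.

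In the GENCODE M21 annotation, the start of Ndufs6 overlaps by 29 bases the start of Mrpl36, a gene for a mitochondrial ribosomal protein that is transcribed the other way. Mrpl36 stood at 4.17, 4.17, 18.5 and 23.4 RPKM, and its genotype log2 ratios of 2.03 without TNF and 2.36 with TNF were the highest among the 78 genes for mitochondrial ribosomal proteins. Both genes of the pair were thus higher in both libraries labelled Mll1-/-. The values are for RefSeq entries, and RefSeq in GRCm38.p6 places the starts of the pair apart. Whether the entries behind the values overlap is not known. The strand of the reads is not stated, so reads from an overlap could not be assigned to 1 of the genes. Across the 28 members that start within 1000 bases of a gene transcribed the other way, Spearman's rho between the untreated ratios of the member and its partner was 0.26, as a description of genes in the same libraries. Ndufs6 and Mrpl36 were the only one of these 28 pairs with both genes at 1 or above, and in 3 pairs both were at -1 or below: Ndufa1 with Rnf113a1, Ndufa7 with Rps28, and Uqcr10 with Zmat5. Of the 28 members 8 were at -1 or below, and of their partners 3, against 7.03% of all genes. Only 16 of the 28 pairs had both ratios on the same side of 0. Mrpl36, Rnf113a1, Rps28 and Zmat5 were named after their values had been seen.

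**Figure D3:**
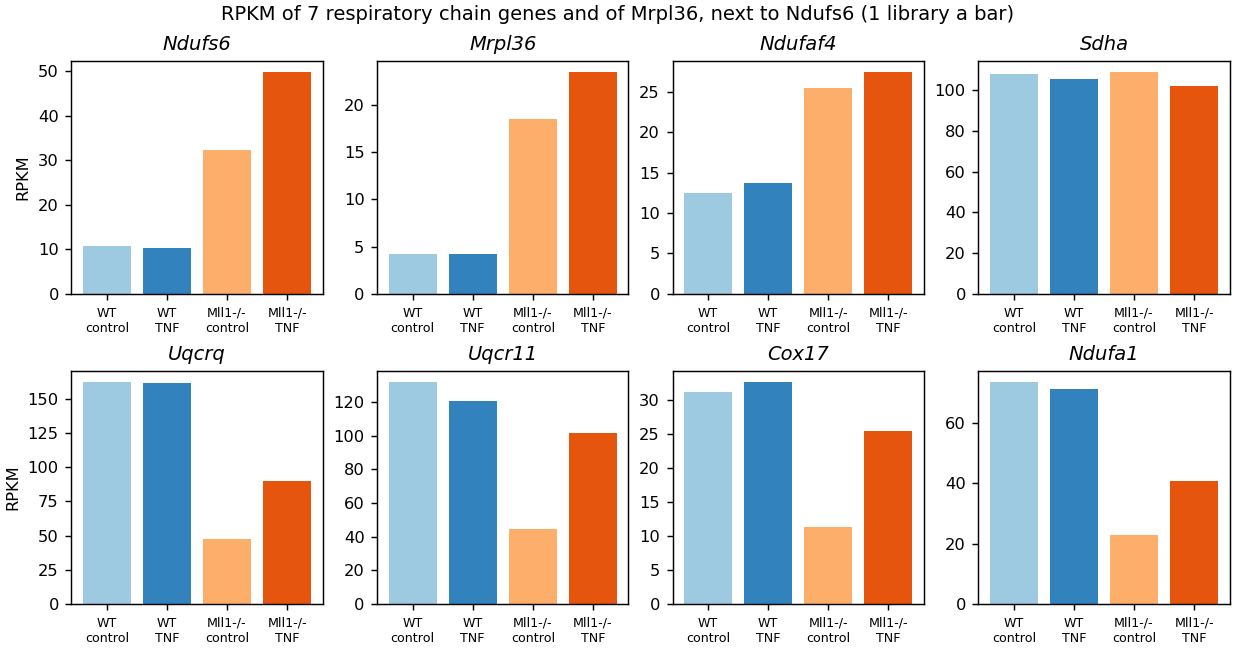
RPKM (vertical axes from 0, scaled to each gene) in the 4 libraries for Ndufs6, its head-to-head neighbour Mrpl36, Ndufaf4, Sdha, Uqcrq, Uqcr11, Cox17 and Ndufa1; each bar is 1 library, so there are no error bars. Ndufs6, Mrpl36 and Ndufaf4 are higher in both Mll1-/- libraries, Sdha is near level in all 4, and the bottom row is lowest in the Mll1-/- control.

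Complex II, which is also the succinate dehydrogenase of the tricarboxylic acid cycle and is wholly nuclear-encoded, differed least between the genotypes. Its 4 genes had a median untreated ratio of -0.15, and 0.04 when centred on length. Sdha, the flavoprotein that oxidizes succinate, stood at 108 RPKM in the wild-type control, 105 in wild type with TNF, 109 in the Mll1-/- control and 102 in Mll1-/- with TNF. Its untreated ratio of reads was 1.01 with a counting interval of 0.974 to 1.04, so a difference was not detectable at this depth. Sdhb, the iron-sulfur subunit, had 82.3, 76.2, 55.4 and 68.2 RPKM. Sdhc and Sdhd anchor the complex in the membrane. Sdhc had 54.9, 49.7, 46.4 and 47.6 RPKM and Sdhd 83.3, 76.4, 79.4 and 94.4 RPKM. The spread between the 4 libraries was widest for Sdhb and narrowest for Sdha.

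Complex III, the cytochrome bc1 complex, held the member with the lowest untreated ratio. Uqcrq, a small subunit that lies near the ubiquinone sites, stood at 162 RPKM in the wild-type control, 161 in wild type with TNF, 47.3 in the Mll1-/- control and 90.2 in Mll1-/- with TNF, from 6888, 6918, 1455 and 2670 reads. Its untreated log2 ratio was -1.77, or 3.43-fold lower in Mll1-/-, and its length-centred ratio was -1.51. Its transcript is listed with 1533 bases for a coding length of 246, and centred by coding length the ratio was -1.25. Uqcr11, another small subunit, stood at 132, 120, 44.7 and 102 RPKM, and Uqcr10 at 139, 124, 57.2 and 92.2 RPKM. In all 3, the Mll1-/- control was the lowest library and both wild-type libraries were the highest.

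The subunits of complex III that carry electrons differed less. Cyc1 (cytochrome c1) had 213, 181, 145 and 192 RPKM, and Uqcrfs1, the Rieske iron-sulfur protein, had 87.4, 84.8, 62.5 and 77.5 RPKM. Uqcrc2, a core protein with no redox centre, had 68.7, 69.4, 63.5 and 65.9 RPKM, the smallest untreated difference in the complex at -0.11. Cycs, the cytochrome c that shuttles electrons to complex IV, had 74.9, 82.9, 60.2 and 71.5 RPKM. The wild-type libraries of Cycs were the 2 highest.

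All 12 complex IV genes compared were lower in untreated Mll1-/- cells, with a median of -0.86, or -0.17 when centred on length. Cox8a, Cox7c and Cox6c, small nuclear subunits without a redox centre, were past the 2-fold rule. Cox8a stood at 305, 266, 121 and 192 RPKM, Cox7c at 150, 139, 66.2 and 106 RPKM, and Cox6c at 239, 243, 119 and 212 RPKM. For these genes the value with TNF in Mll1-/- lay between the Mll1-/- control and the wild-type libraries. Cox5a had the untreated ratio nearest 0 among the subunits, with 217, 210, 158 and 220 RPKM.

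Complex IV has subunits with more than 1 gene, used in different tissues, and the fibroblasts held transcripts of 1 form in nearly every family. Cox4i1, the general form of subunit 4, stood at 325, 308, 189 and 312 RPKM, while Cox4i2, known from lung, was at 0 in 3 libraries and 0.0685 RPKM in the Mll1-/- control. Cox6a1 had 186, 167, 116 and 165 RPKM, and Cox6a2, the heart and muscle form, at most 0.633. Cox7a2 had 152, 149, 93.5 and 157 RPKM, and Cox7a1, the other heart and muscle form, at most 0.253. Cox7a2l, a relative of the Cox7a genes that takes part in joining complexes III and IV, had 135, 132, 107 and 120 RPKM. Cox7b had 98.1, 101, 49.2 and 88.5 RPKM and Cox7b2 at most 0.315. Ndufa4, named for complex I and now assigned to complex IV, had 372, 376, 200 and 302 RPKM, and its relative Ndufa4l2 at most 0.145. These 5 low genes, Cox4i2, Cox6a2, Cox7a1, Cox7b2 and Ndufa4l2, are the members that were not compared. In every one of these families the expressed form was lowest in the Mll1-/- control, and the other form stayed under 1 RPKM in all 4 libraries.

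**Figure D4:**
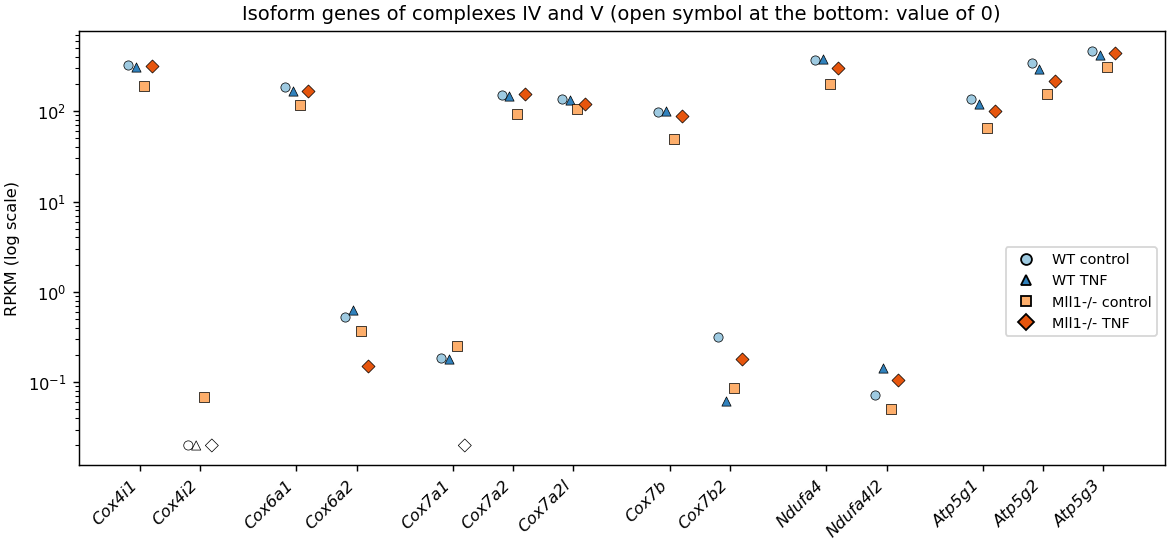
RPKM (log axis) of genes that encode alternative forms of a subunit, with 1 symbol for each of the 4 libraries and open symbols at the bottom edge for a value of 0; genes of a family stand together, and each symbol is 1 library. The tissue forms Cox4i2, Cox6a2, Cox7a1, Cox7b2 and Ndufa4l2 lie below 1 RPKM, and the 3 genes for the c subunit of ATP synthase all lie above 60 RPKM.

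Complex V had a median untreated ratio of -0.64, and -0.18 when centred on length, and all 17 genes lay below 0. Atp5b, the catalytic beta subunit, was the most abundant member, with 1111 RPKM in the wild-type control, 1054 in wild type with TNF, 926 in the Mll1-/- control and 992 in Mll1-/- with TNF, an untreated ratio of reads of 0.834 (0.823 to 0.845). Atp5e, the small epsilon subunit of the same F1 head, differed more, with 153, 141, 59.4 and 97.9 RPKM. The c subunit, which forms the turning ring in the membrane, comes from 3 genes that encode the same mature protein. Atp5g1 had 136, 121, 65.1 and 100.5 RPKM, Atp5g2 had 339, 296, 156 and 218 RPKM, and Atp5g3 had 463, 422, 307 and 445 RPKM. Atp5g1 and Atp5g2 were past the 2-fold rule without TNF and Atp5g3, the most abundant of the 3, was not. Atp5j2 (subunit f) and Atp5md, 2 other small membrane subunits, were also past it, at -1.21 and -1.12.

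The 17 assembly factors were far less abundant than the subunits, with a median of 9.42 RPKM against 96.6 for the subunits compared, and their median untreated ratio was -0.35, or -0.33 when centred on length. Cox17, the chaperone that hands copper on toward complex IV, stood at 31.2 RPKM in the wild-type control, 32.6 in wild type with TNF, 11.3 in the Mll1-/- control and 25.4 in Mll1-/- with TNF. Cox14, which acts early in the making of the Cox1 subunit, had 40.4, 34.5, 19.4 and 34.5 RPKM. Ndufaf8, a complex I assembly factor, had 12.2, 11.2, 4.54 and 7.97 RPKM. These 3 were past the 2-fold rule, all with the Mll1-/- control lowest. Ndufaf4, another complex I assembly factor, went the other way with 12.5, 13.7, 25.5 and 27.4 RPKM, 2.05-fold higher in Mll1-/- without TNF (1.91 to 2.20) and 2.01-fold with TNF (1.87 to 2.15). Ndufaf6 and Cox18 were lower in both Mll1-/- libraries, at 10.9, 10.6, 5.52 and 5.70 RPKM and at 18.1, 17.3, 9.54 and 9.85 RPKM, with little difference between control and TNF in either genotype.

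With TNF present in both genotypes, the genotype difference of the members was smaller. The median log2 ratio was -0.19, against -0.03 over all genes, and -0.03 when centred on length, or between -0.10 and -0.02 under the other choices of neighbours. Below 0 lay 74 of 97 members, against 53.4% of all genes. No member was at -1 or below, against 4.61% of all genes, and 1 member, Ndufs6, was at 1 or above, against 7.23%. After length centring, 4 members were 1.5-fold or more lower, against 10.2% of all genes, and 3 were 1.5-fold or more higher, against 14.0%. The 4 were Cox18, Ndufaf6, Ndufb11 and Uqcrq, and the 3 were Ndufs6, Ndufaf4 and Ndufaf3, a complex I assembly factor at 2.84, 2.39, 2.69 and 3.75 RPKM. All 7 stayed past that size when neighbours were taken by coding length in place of transcript length.

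**Figure D5:**
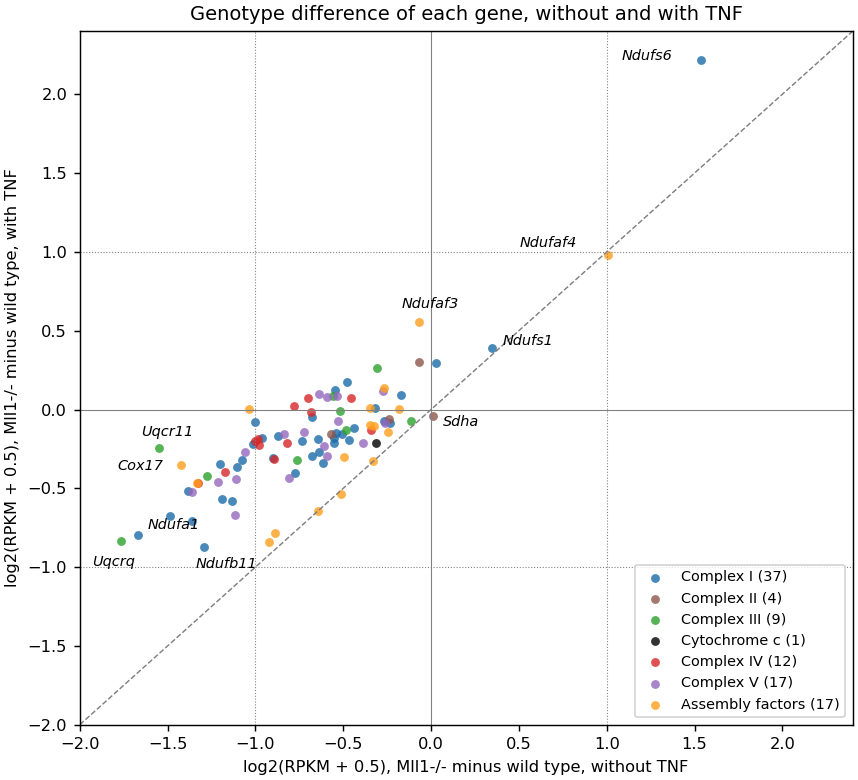
Difference of log2(RPKM + 0.5), Mll1-/- minus wild type, without TNF (horizontal axis) and with TNF (vertical axis), for the 97 compared members coloured by complex; dotted lines mark 2-fold, the dashed line marks equal values and each point is 1 gene with no error bar. Most points lie left of 0 and above the dashed line, Ndufs6 stands alone at the upper right, and Ndufaf4 lies on the dashed line near 1.

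TNF itself went with small differences in wild-type cells. The median log2 ratio of TNF to control was -0.06, or -0.01 when centred on length, and the median of all genes was -0.02. The members ran from -0.29 for Ndufa11 to 0.21 for Atp5md, none reached 1 in either direction, and 0.585% and 0.072% of all genes did. Below 0 lay 71 members, against 55.8% of all genes, and the counting interval was wholly below 1 for 35, against 20.6% of all genes, and wholly above 1 for 4, against 16.2%. GC content moved with this small ratio. Spearman's rho was -0.58 over the 96 members with a reference transcript and -0.40 over 10906 other genes, as a description across genes of the same 2 libraries.

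In Mll1-/- cells the TNF library was higher than the control library for 93 of the 97 members, against 50.0% of all genes, with a median log2 ratio of 0.45 where that of all genes was 0.00. The 4 exceptions were Sdha, Cox10, Cox19 and Cox20, between -0.01 and -0.11. A log2 ratio of 1 or more was reached by 2 members, Uqcr11 at 1.18 and Cox17 at 1.13, against 0.648% of all genes. Medians by complex were 0.45 for complex I, 0.14 for complex II, 0.54 for complex III, 0.67 for complex IV, 0.53 for complex V and 0.20 for the assembly factors. The counting interval lay wholly above 1 for 84 members, against 24.1% of all genes, and wholly below 1 for Sdha alone, against 24.7%.

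Length moved with this ratio too, with a rho of -0.65 over the members and -0.57 over the other genes. Centred on length, the median of the members was 0.13, 78 of 97 lay above 0 (80.4%), against 50.3% of all genes, and 4 were 1.5-fold or more higher, against 1.68%. The centred median was 0.23 with no filter or with coding-length neighbours, 0.24 with entries without a symbol kept and 0.21 with neighbours within 2-fold in mean RPKM. Those 4 were Uqcr11, Cox17, Uqcrq and Atp5g1. The last of them is listed with a transcript of 4788 bases for a coding length of 408, has a second entry of 805 bases with nearly the same RPKM, and was not 1.5-fold higher when neighbours were taken by coding length.

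The difference of the TNF ratios, Mll1-/- minus wild type, had a median of 0.51 over the members and 0.01 over all genes. Centred on length it was 0.13, or between 0.14 and 0.26 under the other choices of neighbours. With at least 3 RPKM required in at least 1 library it was 0.12. At 1 or more stood 3 members, Uqcr11 at 1.31, Cox17 at 1.07 and Cox14 at 1.04, against 0.594% of all genes. Counting intervals below 1 in wild type and above 1 in Mll1-/- were found for 33 members, against 6.14% of all genes, with neither length nor abundance held level. The untreated genotype ratio, the TNF ratio in Mll1-/- and this difference all rest on the same Mll1-/- control library. A low value in that 1 library lowers the first and raises the other two, and without it only the comparison of the genotypes with TNF and the TNF ratio in wild type remain. Uqcr11 shows the values side by side, with -1.55 for the genotypes without TNF, 1.18 for TNF in Mll1-/-, -0.24 for the genotypes with TNF and -0.13 for TNF in wild type. The order wild-type control above Mll1-/- with TNF above Mll1-/- control held for 77 members (79.4%), against 28.2% of all genes, again without length held level.

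Genes around the chain gave the following untreated genotype ratios, with the length-centred median in each second place. The 78 genes for mitochondrial ribosomal proteins, which translate the mitochondrial subunits, had -0.44 and -0.11, and the 77 genes named as cytosolic ribosomal proteins had -0.84 and -0.22. At -1 or below were 6 of the first (7.69%) and 21 of the second (27.3%), against 7.03% of all genes. The 21 genes for electron entry and carriers outside the complexes had -0.36 and -0.04, with Slc25a5, an ADP/ATP carrier, lowest at 743, 726, 411 and 528 RPKM. The 35 other assembly and cofactor genes had -0.31 and 0.01, with 1 at -1 or below, Sdhaf3. The 20 genes of the tricarboxylic acid cycle and pyruvate dehydrogenase had -0.16 and -0.02, with 3 at -1 or below. These were the kinase genes Pdk4 at -1.61 and Pdk1 at -1.41, and Pdhb at -1.09. Pdk1 is also on the hypoxia and glycolysis list below. The members' length-centred median of -0.19 lay between those of the ribosomal lists.

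The 17 regulators of mitochondrial biogenesis that were compared had a median of -0.18 and none was past the 2-fold rule in any of the comparisons. The lowest was Esrra, a nuclear receptor that acts on respiratory chain genes, with 15.1, 13.2, 7.70 and 7.87 RPKM. The highest was Yy1, a zinc-finger factor, with 33.0, 35.1, 41.8 and 38.3 RPKM. Ppargc1a and Ppargc1b, the PGC-1 coactivators, were under 1 RPKM in all 4 libraries. The 19 genes of hypoxia and glycolysis had a median of 0.01 and stood on both sides of it, with 2 at 1 or above and 1, Pdk1, at -1 or below. The signs of the medians of the regulators and of the tricarboxylic acid cycle list turned positive, at 0.07 and 0.10, when the libraries were scaled without the 20 most abundant genes.

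Promoters of the members were searched for motifs known from respiratory chain genes, on both strands, in the RefSeq window from 250 bases before to 50 bases after the start (GRCm38.p6). The window was found for 81 of the compared members. GCATGCGC, the core of the site of nuclear respiratory factor 1 (NRF1), was in 13 of them (16.05%), in 6.231% of 8778 other compared genes and in 3.049% of all 27025 genes with a window. CCGGAAG, an ETS site such as GABP binds, was in 24 (29.63%), against 21.44% of other compared genes. AAGATGGCG, the YY1 site, was in 9 (11.11%), against 3.851%. TGACGTCA, the cyclic AMP response element, was in 5 (6.173%), against 3.623%, and GGGCGG, the GC box, in 39 (48.15%), against 70.85%. TATAAA, the TATA box, was in 7 (8.642%), against 8.578%. Over all 27025 genes with a window, the shares were 9.928% for the ETS site, 1.639% for the YY1 site and 2.031% for the cyclic AMP response element. They were 38.2% for the GC box and 15.67% for the TATA box. The members' GC box share thus lay below that of other compared genes and above that of all genes with a window. No test was run on these shares.

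The median untreated genotype ratio was -0.64 for the 13 members with an NRF1 match and -0.61 for the others, and for the ETS match it was -0.62 on both sides. For the YY1 site it was -0.55 with a match and -0.63 without, and for the cyclic AMP response element -0.48 and -0.63. The medians lay farther apart for the GC box, at -0.51 with and -0.73 without, and for the TATA box, at -1.0 in 7 members with and -0.59 without. The TNF ratio in Mll1-/- had medians of 0.39 with and 0.53 without the GC box, and of 0.66 and 0.45 for the TATA box. None of these differences was tested, and length was not held level in them. The bases before the start are shown for the member with the largest TNF ratio in Mll1-/- (Uqcr11), a member that was higher in Mll1-/- (Ndufaf4), the member that stayed level (Sdha), the carrier Cycs, and the stretch between the RefSeq starts of Ndufs6 and Mrpl36, which RefSeq places apart where GENCODE has them overlap. All are from GRCm38.p6, cut where the next protein-coding gene begins, and capitals mark matches to the motifs above. Uqcr11 lies at chr10:80406822-80407071, minus strand, Ndufaf4 at chr4:24897833-24898082, plus strand, Sdha at chr13:74350241-74350316, minus strand, Cycs at chr6:50566570-50566819, minus strand, and Ndufs6 at chr13:73328483-73328502, minus strand.
Uqcr11: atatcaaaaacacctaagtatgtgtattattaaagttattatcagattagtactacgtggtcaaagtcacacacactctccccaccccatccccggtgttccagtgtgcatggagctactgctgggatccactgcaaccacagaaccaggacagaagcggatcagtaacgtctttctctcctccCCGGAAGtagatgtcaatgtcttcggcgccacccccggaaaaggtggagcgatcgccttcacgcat
Ndufaf4: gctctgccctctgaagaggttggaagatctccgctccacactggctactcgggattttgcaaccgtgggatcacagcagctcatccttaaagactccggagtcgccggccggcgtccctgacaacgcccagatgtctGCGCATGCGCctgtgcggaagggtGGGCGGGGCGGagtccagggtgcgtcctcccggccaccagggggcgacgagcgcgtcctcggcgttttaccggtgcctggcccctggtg
Sdha: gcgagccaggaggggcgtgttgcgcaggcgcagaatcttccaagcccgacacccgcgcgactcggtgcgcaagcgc
Cycs: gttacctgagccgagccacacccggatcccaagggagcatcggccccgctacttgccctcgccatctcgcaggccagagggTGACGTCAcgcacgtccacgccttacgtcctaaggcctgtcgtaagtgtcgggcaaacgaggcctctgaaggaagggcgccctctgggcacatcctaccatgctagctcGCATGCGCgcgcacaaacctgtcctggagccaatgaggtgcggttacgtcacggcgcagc
Ndufs6: ctgtgcgcctgcgccggcac
In the stretches shown, Ndufaf4 holds the NRF1 core on both strands, in overlap, and 2 GC boxes, Cycs holds the NRF1 core and the cyclic AMP response element, Uqcr11 holds the ETS site, and Sdha and Ndufs6 hold none of the 6 motifs. The searched window runs on past the start and holds further matches that are not printed: an NRF1 core that spans the start in Uqcr11, an NRF1 core just after it in Ndufaf4, a GC box in Cycs and a YY1 site in Ndufs6. A match is a run of letters and says nothing of binding, and no match says only that these letters are not in the stretch searched.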

How the data were processed

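RNA was sequenced from 4 libraries, 1 for each combination of genotype and TNF treatment. The deposited table holds RPKM values that the authors computed for 27344 RefSeq transcript entries, with 1 column for each library, per the file headers and the table's name. The tools named by the authors, per the submitters' processing notes, are TopHat and DESeq, with neither role nor version. For the genome build, the annotation, the counting program and the strand, the sources used here give nothing. The dose in ng/ml follows the design text and the agent label, and the unit differs in the treatment protocol.

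Entries were named by RefSeq accession, 20849 through the RefSeq gene table and 102 through GENCODE M21, and 6393 without a name were left out of the 11115 genes compared. For each symbol the entry with the highest mean RPKM was kept. All comparisons used log2(RPKM + 0.5) for genes with 1 RPKM or more in at least 1 library, and a log2 ratio of 1 in size is the 2-fold rule. Library totals and transcript lengths were recovered from the steps of the RPKM values, which are whole reads within 0.0001. GENCODE transcript lengths set the scale of the totals and chose among multiples of a length, so that they are no independent check of it; the recovered length lay within 10% of them for 79.0% of 20661 entries. Counting intervals are exact binomial (Clopper-Pearson, 95%) on the recovered reads and cover counting error only. Where a gene has several entries, reads were counted in each of them: reads summed over entries came to between 1.663 and 1.764 times the library totals. Of the members, 16 have a copy or pseudogene by name in the RefSeq table. Sequence identity was not measured, and reads may be split with such a copy.

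A rule set which members to name: the 2 highest and 2 lowest by mean RPKM in each complex and among the assembly factors, and the 2 highest and 2 lowest log2 ratios of each comparison. It also took every member past the 2-fold rule with at least 3 RPKM, the isoform families, and the extremes of the other lists, of which only some are described. Uqcrb, Atp5k, Cox11, Ndufaf2 and Cox6b1 were chosen by the rule but are not described above. Their length-centred untreated ratios were 0.02, 0.29, -0.08, 0.24 and -0.04, in that order. Cox6b2, Cox8b and Cox8c were on the list of isoform families and were not found. Other members were named after their values were seen (for example those outside the common order of libraries). The members, lists and rules were chosen with earlier results of these data known. Counts and medians stand beside those of all genes compared, and with 1 library a group no test was made. Alternatives were 2 other pseudocounts, 2 other filters, 3 other scalings, the mean over entries, subunits only, and 6 other ways to take length neighbours. The scripts were tested on simulated data. Calculations used Python 3.11.15, numpy 2.4.6, pandas 2.3.3, scipy 1.17.1 and matplotlib 3.10.9.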

Additional observations from a re-analysis of the deposited data

Results flagged for a closer look

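The TNF ratio of the members differed between the genotypes. The median difference, Mll1-/- minus wild type, was 0.51 on the log2 scale, from a median TNF ratio of -0.06 in wild type and 0.45 in Mll1-/-. The difference was not tested, since each group is 1 library, and it rests on the Mll1-/- control library, the lowest of the 4 for 87 of 97 members. After length centring it was 0.13.

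For Uqcr11, a small subunit of complex III, the difference was 1.31, with a ratio of reads of 0.913 in wild type (counting interval 0.850 to 0.981) and 2.28 in Mll1-/- (2.02 to 2.58). For Cox14, an assembly factor of complex IV, it was 1.04, with 0.855 in wild type (0.772 to 0.946) and 1.78 in Mll1-/- (1.53 to 2.06). Both genes were picked for their counting intervals, below 1 with TNF in wild type and above 1 in Mll1-/-, and for a difference past the 2-fold rule. Their directions thus follow from the choice and are no result of their own. Intervals below 1 in wild type and above 1 in Mll1-/- were found for 33 of 97 members, against 6.14% of all genes compared.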

How the results depend on the processing

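No paired analysis was possible because each group is 1 library, and for the same reason no replicate could be left out. Of the summary values computed under other settings, 168 moved by no more than the counting error of a typical member or, for counts, by no more than 1.5 times, and 18 moved by more. Of the values of single genes, 2270 stayed within their counting error and 145 did not, and none past the 2-fold rule changed its sign. The other filters and the restriction to subunits cannot change a single gene's own ratio. The mean over entries can change it only for a gene with several entries. Part of the 2270 was thus fixed in advance and is no sign of stability. Scaling the libraries without the 20 most abundant genes shifted the median of all genes from -0.04 to 0.19 in the untreated genotype comparison and from 0.00 to -0.12 for TNF in Mll1-/-. The members' medians there were -0.3819 and 0.3222, and 14 members were past the 2-fold rule without TNF in place of 28. Of these, 2 were higher and 12 lower. In the same scaling 85 of 97 members lay below 0 in place of 92, the median of complex II turned to 0.10, and the lists had -0.5815 for cytosolic ribosomal proteins, -0.1818 for mitochondrial ribosomal proteins, -0.1129 for electron entry, -0.0567 for other assembly genes, 0.0685 for biogenesis regulators, 0.097 for the tricarboxylic acid cycle and 0.2674 for hypoxia and glycolysis. With TNF, 2 members in place of 1 were past the rule under median-ratio, upper quartile and 20-gene scaling. For the difference of TNF ratios, 1 was past it in place of 3 under the 20-gene scaling and with structural subunits only, and with those 1 in place of 2 for TNF in Mll1-/-. The length-centred untreated median of -0.19 became -0.4076 with no filter and -0.3227 with neighbours by coding length (chosen after seeing the data). Keeping entries without a symbol, also chosen afterwards, gave -0.2953. The cause of these changes was not tested.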
